A study of Caenorhabditis elegans with 4 samples.

Results

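miR-71-5p and miR-246-3p are microRNAs (miRNAs) of *C. elegans* that are needed for a normal lifespan. They were followed here in small RNAs recovered with the Argonautes ALG-1 and ALG-2 from day 5 adults. The members were chosen by name for this shared role, and both were found among the 66 mature miRNAs listed. Their opposite directions between the co-immunoprecipitations (co-IPs) were known when they were chosen, so these directions are a description. One mature form of each gene was listed, and the other arms were not analysed here.

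One strain carried FLAG::GFP::ALG-1 (PQ530) and the other FLAG::RFP::ALG-2 (PQ582), with the tags added to the endogenous genes by genome editing. Whole animals grown at 20 °C on OP50 bacteria were collected at adult day 5, after eggs and larvae had been removed, and both proteins were recovered with an anti-FLAG antibody. Each protein was represented by 2 small RNA libraries, named ALG-1 A, ALG-1 B, ALG-2 A and ALG-2 B by column order, since no column carries a replicate number. The fluorescent tag and the strain differ together with the Argonaute and cannot be told apart from it, and neither input RNA nor an untagged strain was analysed here.

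Argonautes hold a mature miRNA and use its seed, near the 5′ end, to find target mRNAs. *C. elegans* lacking *mir-71* die early and extra copies extend life, and miR-71 is also known for helping starved larvae survive and for acting in neurons. Loss of *mir-246* likewise shortens life. Both miRNAs become more abundant as wild-type adults age. Their sequences were not read here, so their seeds were not compared.

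The genes are not neighbours. *mir-71* lies on chromosome I (9379927-9380020, WBcel235), inside the span of *ppfr-1*, which encodes a regulatory subunit of a protein phosphatase, and it also overlaps the non-coding RNA gene *F16A11.6*. *mir-246* lies on chromosome IV (10940134-10940230) in no other annotated gene, with the protein-coding gene *fic-1* 199 bases away. The gene table gives spans only, so exons and introns of *ppfr-1* were not distinguished.

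The libraries rested on 6428905 to 25703472 reads, as read from the steps of the deposited values. The member values rested on 36874 reads or more, so that the largest counting error was 0.521%. Counting errors and intervals take in only the sampling of reads, because PCR copies could not be told from separate molecules. Replicates differed by far more than this, and ALG-2 libraries differed more than ALG-1 libraries: the median absolute log2 difference between A and B was 0.34 for ALG-1 and 0.90 for ALG-2 over the 66 miRNAs.

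To determine how miR-71-5p is distributed between the Argonautes, its normalized reads (reads per 1000000 reads of the library, RPM) were compared. miR-71-5p had 27329 RPM in ALG-1 A and 19692 RPM in ALG-1 B, against 18332 RPM in ALG-2 A and 11844 RPM in ALG-2 B. Both ALG-1 values were above both ALG-2 values, but ALG-1 B and ALG-2 A were close to each other. The mean was 23510 ± 5400 RPM for the ALG-1 co-IPs, against 15088 ± 4587 RPM for the ALG-2 co-IPs (SD, n = 2 each). miR-71-5p was thus 2.73% and 1.97% of the ALG-1 libraries and 1.83% and 1.18% of the ALG-2 libraries.

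miR-246-3p showed the opposite order. It had 10156 RPM in ALG-1 A and 5736 RPM in ALG-1 B, against 11964 RPM in ALG-2 A and 19479 RPM in ALG-2 B. Both ALG-1 values were below both ALG-2 values, with ALG-1 A and ALG-2 A close to each other. The mean was 7946 ± 3125 RPM for the ALG-1 co-IPs, against 15722 ± 5314 RPM for the ALG-2 co-IPs (SD, n = 2 each). From the lowest to the highest library, miR-246-3p varied 3.40-fold and miR-71-5p 2.31-fold.

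**Figure D1:**
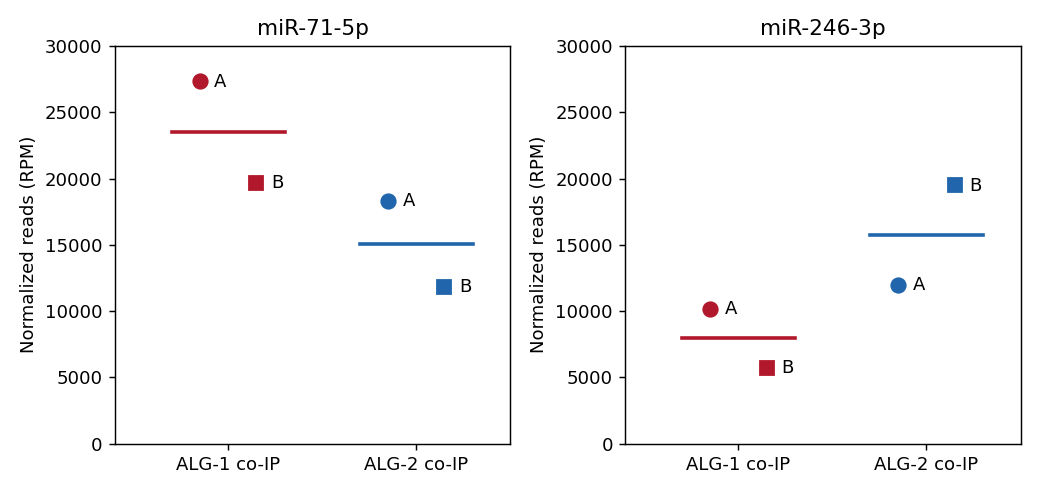
Normalized reads (RPM, linear axis from 0) of miR-71-5p and miR-246-3p in each co-IP library; circles are libraries A, squares libraries B, and horizontal lines the means of 2 libraries. miR-71-5p lies between 19692 and 27329 RPM with ALG-1 and between 11844 and 18332 RPM with ALG-2, whereas miR-246-3p lies between 5736 and 10156 RPM with ALG-1 and between 11964 and 19479 RPM with ALG-2.

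The absence of overlap is common in these data. ALG-1 values were above ALG-2 values in all 4 ratios for 18 of 66 miRNAs (27.3%), miR-71-5p among them, and below for 17 of 66 (25.8%), miR-246-3p among them. The separation of either member is therefore not unusual.

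The spread between replicate libraries was of the same order as the difference between the co-IPs. For miR-71-5p, library A was 1.39-fold above B with ALG-1 and 1.55-fold above B with ALG-2. For miR-246-3p, library A was 1.77-fold above B with ALG-1, whereas with ALG-2 B was 1.63-fold above A. The miR-246-3p difference between the ALG-1 libraries ranked 12 among the 66 miRNAs, with rank 1 the largest, so that it was one of the less reproducible miRNAs with ALG-1. The miR-71-5p difference ranked 22. Between the ALG-2 libraries the members ranked 39 (miR-246-3p) and 43 (miR-71-5p), so there both varied less than the median miRNA.

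The study took a difference of over 1.5-fold in independent replicates as enrichment. Here each of the 4 ratios of one ALG-1 library to one ALG-2 library had to exceed 1.5 in one direction. This is stricter than a rule on matched pairs, which the columns do not allow because nothing shows which libraries belong together. The rule on all 4 ratios held for 9 of 66 miRNAs toward ALG-1 (13.6%) and for 11 toward ALG-2 (16.7%), and neither member was among them.

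For miR-71-5p, the ratio of ALG-1 A over ALG-2 A was 1.49 and that over ALG-2 B was 2.31. ALG-1 B gave 1.07 over ALG-2 A and 1.66 over ALG-2 B. Thus, 2 of the 4 ratios exceeded 1.5, and one of the others missed it narrowly. The lowest ratio had a 95% counting interval (exact binomial) from 1.07 to 1.08, so that reads alone separated the libraries, but it was smaller than the 1.39-fold difference between the ALG-1 libraries.

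For miR-246-3p, the ratios are given as ALG-1 over ALG-2 and lie below 1. ALG-1 A gave 0.849 over ALG-2 A and 0.521 over ALG-2 B. ALG-1 B gave 0.479 over ALG-2 A and 0.294 over ALG-2 B. Expressed as ALG-2 over ALG-1 these ratios were 1.18, 1.92, 2.09 and 3.40, and 3 of the 4 exceeded 1.5. The counting interval of the ratio nearest to 1 was 1.17 to 1.19.

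With only 2 ratios, one for each pair of libraries, the outcome depended on which libraries were paired. With A set against A and B against B, miR-71-5p (1.49 and 1.66) and miR-246-3p (1.18 and 3.40, ALG-2 over ALG-1) each exceeded 1.5 in a single pair. In this pairing both ratios exceeded 1.5 toward ALG-1 for 12 of 66 miRNAs (18.2%) and toward ALG-2 for 11 (16.7%). With A set against B, a pairing added after the data were seen, miR-246-3p exceeded 1.5 toward ALG-2 in both pairs (1.92 and 2.09), as did 15 of 66 miRNAs (22.7%) in all. miR-71-5p did so in a single pair (2.31 and 1.07), and 11 of 66 miRNAs (16.7%) passed toward ALG-1.

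By the ratio of group means, miR-71-5p was 1.56-fold higher with ALG-1, and miR-246-3p was 1.98-fold higher with ALG-2. This looser measure passes 1.5 for 17 of 66 miRNAs toward ALG-1 (25.8%) and for 22 of 66 toward ALG-2 (33.3%).

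limma on log2(RPM + 1) was used to set each difference against the replicate spread, and neither member passed the threshold. The log2 ratio of miR-71-5p, ALG-1 over ALG-2, was 0.65 ± 0.49 (SE, limma adjusted p = 0.492 over 66 miRNAs). Its 95% interval of -0.55 to 1.86 spans from 0.685-fold to 3.62-fold. For miR-246-3p the log2 ratio was -1.0 ± 0.55 (SE, limma adjusted p = 0.315), with a 95% interval of -2.35 to 0.35. Both intervals include 0 and also differences of several fold. Over all 66 miRNAs, limma called 0 miRNAs higher with ALG-1 (0%) and 1 lower with ALG-1 (1.52%). Before adjustment, 7 and 10 miRNAs had a p below 0.05 (10.6% and 15.2%), and neither member was among them. An exact permutation test (two-sided) of 2 against 2 libraries cannot give a p below 0.333. The p-values rest on the spread between these libraries, which the methods describe as independent RNA samples. limma moderates the variance of each miRNA by a trend over all 66, so the spread used is not that of the member alone.

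Among the 66 log2 ratios, 36 were above 0 and 30 below. miR-71-5p ranked 19 from the ALG-1 end, directly above miR-238-3p, and miR-246-3p ranked 53. Hence, 18 miRNAs leaned further toward ALG-1 than miR-71-5p and 13 further toward ALG-2 than miR-246-3p. In size, the median absolute log2 ratio was 0.69, so that the ratio of miR-71-5p was below the middle of the table, and 28 miRNAs had a larger one than miR-246-3p. Over all miRNAs the median was 0.13, and relative to it miR-71-5p stood at 0.52 and miR-246-3p at -1.13.

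**Figure D2:**
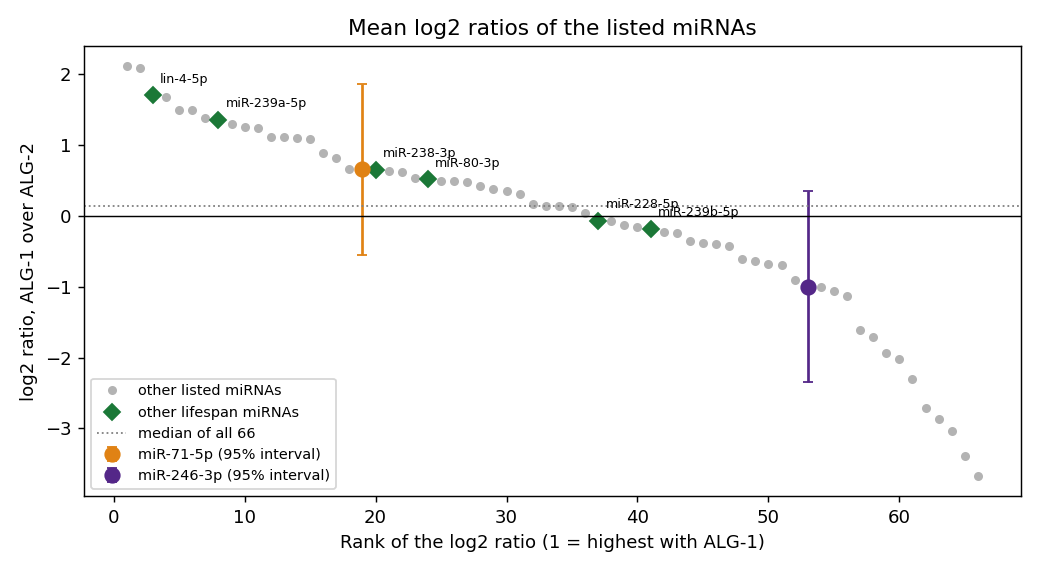
Mean log2 ratios (ALG-1 over ALG-2, on log2(RPM + 1)) of the 66 listed miRNAs in rank order; bars are limma 95% intervals of miR-71-5p and miR-246-3p, diamonds the other lifespan miRNAs, and the dotted line the median of 0.13. The intervals of miR-71-5p (-0.55 to 1.86) and miR-246-3p (-2.35 to 0.35) both include 0.

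Because RPM are shares of a library, the member ratios also depend on what else the library holds. The miR-35 family, which is abundant in oocytes and embryos, took 4.84% of ALG-1 A and 4.19% of ALG-1 B, against 26.5% of ALG-2 A and 14.1% of ALG-2 B. Of its 8 members fixed as a list, 6 were listed here. The 3 miRNAs with the highest mean (miR-58a-3p, miR-72-5p and miR-82-3p) took 43.8% of ALG-1 A and 44.3% of ALG-1 B, against 21.8% of ALG-2 A and 48.2% of ALG-2 B. Each of these sets was left out in turn and the libraries were rescaled.

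Without the miR-35 family, the groups of miR-71-5p overlapped, with ratios from 0.824 to 2.08. miR-246-3p then passed the 1.5-fold rule, with ALG-2 over ALG-1 ratios from 1.52 to 3.79. It was 1 of 8 miRNAs that passed toward ALG-2, of the 60 left. Without the 3 most abundant miRNAs the reverse was seen. miR-71-5p passed the rule toward ALG-1 with ratios from 1.51 to 2.13, as 1 of 11 miRNAs among the 63 left. The groups of miR-246-3p overlapped, with ALG-1 over ALG-2 ratios from 0.274 to 1.18. With median-of-ratios or TMM scaling, the groups of both members remained apart and neither passed the rule. The log2 ratio of miR-71-5p ranged from 0.39 to 0.84 over these 4 scalings and that of miR-246-3p from -1.26 to -0.81, and neither reached the limma threshold in any of them.

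**Figure D3:**
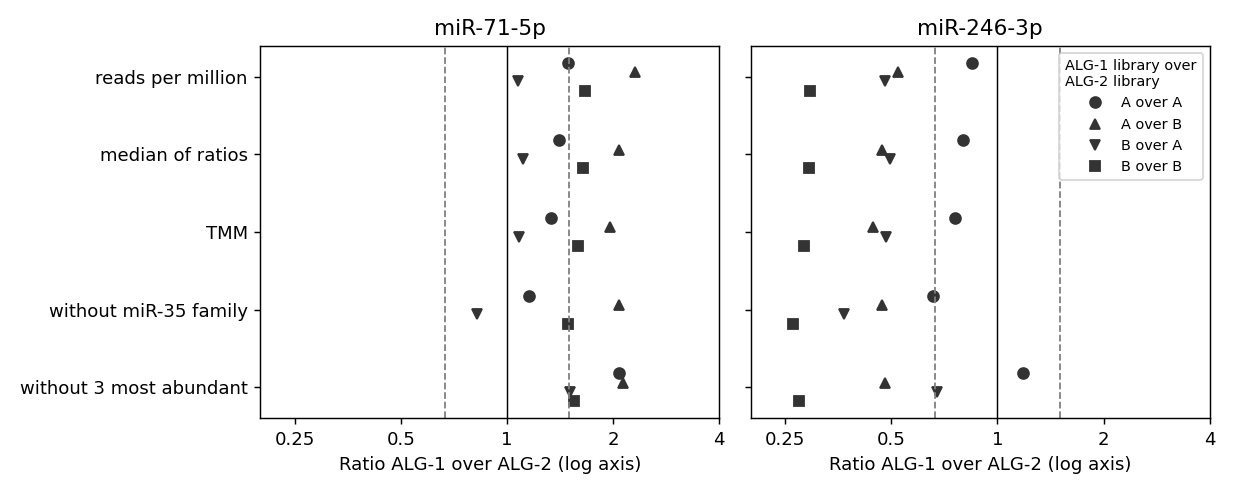
The 4 ratios of an ALG-1 library over an ALG-2 library (log axis) for miR-71-5p and miR-246-3p with each scaling; dashed lines mark 1.5-fold in either direction and the solid line a ratio of 1. For miR-71-5p the lowest ratio is 0.824 without the miR-35 family and 1.51 without the 3 most abundant miRNAs; for miR-246-3p the highest is 0.656 and 1.18 in the same scalings.

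A comparison that does not depend on scaling is the number of miR-71-5p reads per miR-246-3p read within a library. This number was 2.69 in ALG-1 A and 3.43 in ALG-1 B, against 1.53 in ALG-2 A and 0.608 in ALG-2 B. miR-71-5p was thus the more abundant of the pair in both ALG-1 libraries and in ALG-2 A, but the less abundant in ALG-2 B. On the log2 scale it averaged 1.60 ± 0.25 in the ALG-1 libraries, against -0.05 ± 0.94 in the ALG-2 libraries (SD, n = 2 each). This is a difference of 1.65, or 3.15-fold. Over the 4 pairs of libraries the difference ranged from 1.76-fold to 5.65-fold. Since the pair was chosen with its opposite directions known, no p-value is given.

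**Figure D4:**
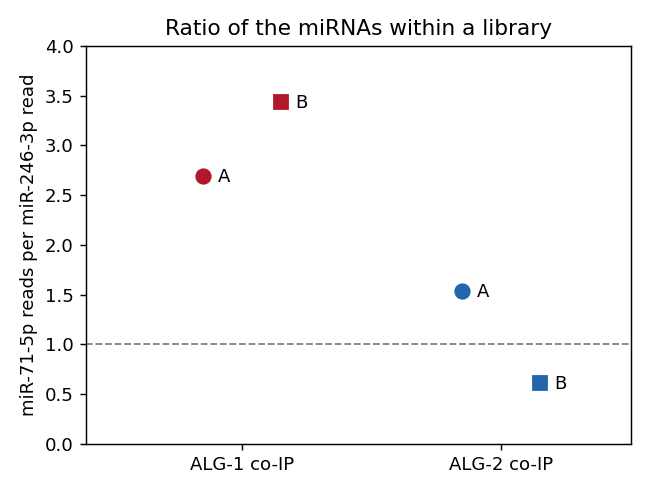
Reads of miR-71-5p per read of miR-246-3p (linear axis from 0) in each library; circles are libraries A, squares libraries B, and the dashed line marks equal reads. The ALG-1 libraries lie at 2.69 and 3.43, and the ALG-2 libraries at 1.53 and 0.608.

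Together the members held 3.75% of ALG-1 A and 2.54% of ALG-1 B, against 3.03% of ALG-2 A and 3.13% of ALG-2 B. The ALG-2 shares lay between the ALG-1 shares.

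In rank order by abundance, miR-71-5p was 10 of 66 in ALG-1 A and 12 in ALG-1 B, against 18 in ALG-2 A and 17 in ALG-2 B. miR-246-3p was 20 in ALG-1 A and 26 in ALG-1 B, against 24 in ALG-2 A and 15 in ALG-2 B. Its rank therefore overlapped between the co-IPs, whereas that of miR-71-5p did not.

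By group mean, miR-71-5p stood with ALG-1 between miR-44-3p (25936 ± 1387 RPM), which has the same values as miR-45-3p, and miR-35-3p (20007 ± 2050 RPM; SD, n = 2 each). Both neighbours overlapped with it. With ALG-2 it overlapped with miR-48-5p above it (15633 ± 2350 RPM), but not with miR-66-5p below it (10662 ± 423 RPM; SD, n = 2 each). miR-246-3p overlapped with all of its neighbours. These were miR-55-3p (8153 ± 631 RPM) and miR-77-3p (7918 ± 2500 RPM) with ALG-1, and miR-61-3p (17978 ± 11379 RPM) and miR-48-5p with ALG-2, each as mean and SD of 2 libraries.

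The miRNAs whose profile over the 4 libraries was nearest to each member were found from the root mean square difference of log2(RPM + 1) values, centred for each miRNA. Nearest to miR-71-5p were miR-47-3p (0.12), miR-46-3p (0.16) and miR-50-5p (0.17), compared to a median of 0.76 over the 65 other miRNAs. miR-47-3p had 2149 RPM in ALG-1 A and 1483 RPM in ALG-1 B, against 1196 RPM in ALG-2 A and 782 RPM in ALG-2 B. All 3 shared with miR-71-5p the highest value in ALG-1 A and the lowest in ALG-2 B.

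Nearest to miR-246-3p were miR-244-5p (0.091), miR-80-5p (0.24) and miR-66-5p (0.26), compared to a median of 1.06. miR-244-5p had 1747 RPM in ALG-1 A and 958 RPM in ALG-1 B, against 1763 RPM in ALG-2 A and 3337 RPM in ALG-2 B. Each was lowest in ALG-1 B and highest in ALG-2 B, as was miR-246-3p. The distance between miR-71-5p and miR-246-3p themselves was 0.96. The nearest miRNAs of both members were picked on these same values. Their distances below the median, and the high and low libraries they share with a member, therefore follow from that choice. With 4 libraries, such a likeness is a description of these libraries only.

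**Figure D5:**
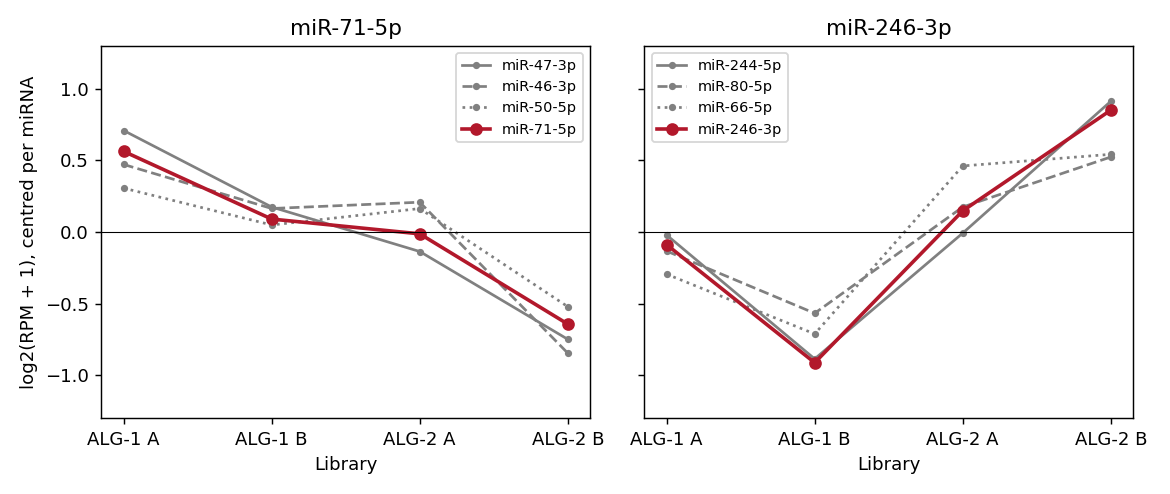
Centred log2(RPM + 1) values of miR-71-5p and miR-246-3p (red) and of the 3 miRNAs nearest to each (grey) in the 4 libraries. miR-71-5p and its nearest miRNAs are highest in ALG-1 A and lowest in ALG-2 B, whereas miR-246-3p and its nearest miRNAs are lowest in ALG-1 B and highest in ALG-2 B.

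The members were set beside the 6 other miRNAs that the study names for a lifespan phenotype. Loss of lin-4, miR-238 or miR-228 is known to shorten life, as for the members, whereas loss of miR-80 or miR-239a/b lengthens it. ALG-1 values were above ALG-2 values in all 4 ratios for 2 of the 6, lin-4-5p and miR-80-3p, and below in all 4 for 0 of the 6, and 4 overlapped. Over all 66 miRNAs the shares were 27.3% above and 25.8% below, and a list of 6 is too short to be told apart from them. This list holds the 3p arm of miR-80 alone. The other arm, miR-80-5p, went the opposite way, with ALG-1 values below ALG-2 values in all 4 ratios (0.469 to 0.807, ALG-1 over ALG-2) and a log2 ratio of -0.70 ± 0.57 (SE, limma adjusted p = 0.511). miR-80-5p averaged 368 ± 78.0 RPM in the ALG-1 co-IPs, against 596 ± 102 RPM in the ALG-2 co-IPs (SD, n = 2 each). miR-80-3p was far more abundant, with 34015 ± 5170 RPM in the ALG-1 co-IPs, against 23643 ± 12 RPM in the ALG-2 co-IPs (SD, n = 2 each). miR-80-5p was named because its profile was among the 3 nearest to miR-246-3p, so the direction these share followed from that choice. Of the 6 listed, miR-228-5p (log2 ratio -0.071) and miR-239b-5p (-0.18) were also below 0, with groups that overlapped. The log2 ratios of lin-4-5p, miR-238-3p, miR-80-3p and miR-239a-5p were above 0. The median log2 ratio of the 6 listed was 0.58, compared to 0.13 over all 66.

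miR-238-3p had nearly the same log2 ratio as miR-71-5p, 0.65 ± 0.59 (SE, limma adjusted p = 0.545), but its groups overlapped. It had 10006 RPM in ALG-1 A and 11474 RPM in ALG-1 B, against 10563 RPM in ALG-2 A and 4437 RPM in ALG-2 B. Its value in ALG-2 A lay between the ALG-1 values. As for miR-71-5p, ALG-2 B was the lowest of the 4.

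The genomic neighbour of *mir-71* was also listed. *mir-2* lies 7062 bases from *mir-71* in the span of *ppfr-1*, and miR-2-3p was added for this position, outside the naming rule and after its values were seen. It had 496 RPM in ALG-1 A and 275 RPM in ALG-1 B, against 412 RPM in ALG-2 A and 276 RPM in ALG-2 B. Its groups overlapped, with a log2 ratio of 0.13 ± 0.63 (SE, limma adjusted p = 0.896). Both genes had their highest value in ALG-1 A, but miR-2-3p was far less abundant and showed no separation between the co-IPs. The miRNA gene nearest to *mir-246*, *mir-2210*, lies 25456 bases away and was not analysed here.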

How the data were processed

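For each Argonaute, 2 small RNA libraries were made from co-IPs with the TruSeq kit for small RNAs and read on an Illumina HiSeq. Adapters were removed by the authors (cutadapt is named in the submitters' processing notes, version not given in the sources used here), who mapped the reads with miRDeep2 to the WS261 genome and quantified them on miRBase annotations. The deposited values are RPM, which the authors scaled to 1000000 reads in each library. The 66 listed miRNAs made up 99.3% to 99.5% of this total in each library. Whether the total holds reads not assigned to miRNAs was not determined, so shares of a library are shares of the scaled total. The study set a minimum of reads across the libraries for its enrichment analysis, and the lowest summed RPM of a listed miRNA was 1003.19. Rarer miRNAs are thus not among the 66, and all shares and ranks here are over the listed set. The sum is over both co-IPs, so a miRNA can be listed through a single co-IP. All 66 values of a column were whole multiples of one step (tolerance 0.001 reads), which gave the depth of the library. Depth was used for counting errors, exact binomial intervals and TMM weights, and no count model was fitted.

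Columns were matched to groups by the Argonaute in their names. limma 3.58.1 in R 4.3.3 was run on log2(RPM + 1) of all 66 miRNAs, with an abundance trend, no block and Benjamini-Hochberg adjustment (threshold 0.05). It was tested on simulated data with a common replicate SD (0.79 on the log2 scale) and planted changes larger than those of the members. That test therefore does not show whether changes of the members' size would be found. Ratios are ALG-1 over ALG-2 unless said otherwise. Gene positions are from RefSeq (WBcel235, the assembly of WS261). Named miRNAs were the members, the 3 nearest profiles of each, the neighbours by group mean, and the 6 other lifespan miRNAs. Seed sharing, also part of the rule, was not looked up. The members and lists were chosen with earlier results of these data known.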

Additional observations from a re-analysis of the deposited data

How the results depend on the processing

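Over 14 alternative fits each, the log2 ratio of miR-71-5p stayed above 0 and that of miR-246-3p below 0, and neither passed the limma threshold in any. The blocks, the missing abundance trend and the minimum of 4000 cannot change a log2 ratio, and members whose groups are apart cannot turn when a library is dropped, so much of this was fixed in advance. When each library was left out in turn, one group held a single library, assumed to vary like the others. The log2 ratio of miR-71-5p then ranged from 0.34 (without ALG-2 B) to 0.97 (without ALG-2 A), with limma adjusted p from 0.169 to 0.960, and was 0.42 without ALG-1 A. That of miR-246-3p ranged from -1.41 (without ALG-1 A) to -0.59 (without ALG-1 B), with limma adjusted p from 0.191 to 0.875, and was -0.65 without ALG-2 B. The difference in the log2 ratio of miR-71-5p to miR-246-3p ranged from 0.99 (without ALG-2 B) to 2.32 (without ALG-2 A).

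The count of miRNAs lower with ALG-1 by limma, 1 as reported, was 4 with median-of-ratios or TMM scaling and 3 without the abundance trend. It was 0 without the 3 most abundant miRNAs. The 1 miRNA reported was miR-37-3p (limma adjusted p = 0.0264), which belongs to the miR-35 family. The count was also 0 without that family, but this setting removes miR-37-3p itself, so the loss of its call was fixed in advance. The replicate block with pairs in column order gave 0 higher and 1 lower, and adjusted p of 0.517 for miR-71-5p and 0.451 for miR-246-3p. Deviations from the group means correlated at -0.21 for that pairing, and with pairs crossed, an alternative chosen after seeing the data, the replicate block gave 2 higher and 5 lower. With a minimum of 4000 summed normalized reads, 46 miRNAs were left, and the 1.5-fold rule gave 5 of these toward ALG-1. It gave 12 to 18 toward ALG-1 and 11 to 18 toward ALG-2 with a library left out, which relaxes the rule. Among other named miRNAs, miR-228-5p turned to 0.12 without the 3 most abundant miRNAs and ranged from -0.26 to 0.12 (without ALG-2 A) with a library left out. miR-239b-5p turned to 0.0072 without the 3 most abundant miRNAs and ranged from -1.68 to 1.33 (without ALG-1 B; 0.16 without ALG-2 B), and miR-239a-5p lay between -0.028 (without ALG-1 A) and 2.74. The cause was not tested. The count model planned on recovered reads and the fits without a numbered replicate were not run. The member values rested on 36874 reads or more, and an effect of library depth was not tested.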
